A study of Mus musculus with 4 samples.

Results

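The IGF1 and insulin receptor genes were followed in mouse T29 thymic lymphoma cells in which Notch-dependent transcription was blocked. They were 10 genes: the ligand gene Igf1, the binding protein gene Igfbp4, the receptor genes Igf1r, Insr and Igf2r, the docking protein genes Irs1 and Irs2, the adaptor gene Grb10, and the kinase genes Akt1 and Akt2. They were taken by symbol from the platform annotation, as 10 of 18193 genes, and 32 probe sets named one of them alone, of 45101 on the array. Each gene was represented by its lead probe set, the one with the highest mean over the 4 arrays.

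The series compared 2 groups of 2 Affymetrix arrays. The treated cells had 100 nM 4OHT for 24 h, and the control cells had ethanol, the solvent, for the same time. 4OHT, a tamoxifen metabolite, binds oestrogen receptor fusion proteins. Cells of both groups were transduced with MigR1-MLER, a retroviral construct for an inducible dominant-negative Mastermind, and the line is described as Ikaros-deficient. Mastermind is the co-activator that the Notch intracellular domain and the DNA-binding protein RBPJ need to switch on target genes. T29 is 1 cell line, cells without the construct were not analysed here, and the labels do not say whether replicates were separate cultures. The p-values therefore measure only the spread between these arrays, which may be technical.

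The IGF1 receptor and the insulin receptor are related tyrosine kinases. When a ligand binds, they phosphorylate the docking proteins IRS1 and IRS2, which recruit phosphoinositide 3-kinase (PI3K), and the lipid it makes activates the AKT kinases. AKT then drives growth through mTOR and keeps FOXO transcription factors out of the nucleus. In human T-cell acute leukaemia, IGF1R has been described as a gene that Notch1 activates, so its values under Mastermind blockade are given in full here.

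None of the 10 genes passed the test. Of the 7 that lay above the testing floor, a mean log2 value of 4.81, 5 had a difference above 0 and 2 below it, and limma called 0 at an adjusted p under 0.05. Over all 11581 tested genes, 7.47% were called, 3.9% higher and 3.57% lower with 4OHT. At an unadjusted p under 0.05 there were 2 of the 7, Irs1 and Insr, against 25.5% of all tested genes. The 4OHT arrays lay above the ethanol arrays without overlap for 3 of the 7 and below them for 1, together 4 of 7. Over all tested genes the shares were 26.7%, 30.2% and 56.9%, so the unadjusted count and the combined overlap count lay near the background. With 7 genes, the split of the overlap count by direction is too small to read. Their median difference was 0.07 on the log2 scale, against -0.01 over all tested genes. The changes that passed anywhere in the table began at 0.40 on the log2 scale, and only Irs1 exceeded that size among the 7. Its log2 difference of -0.74 had a limma adjusted p of 0.0821.

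**Figure D1:**
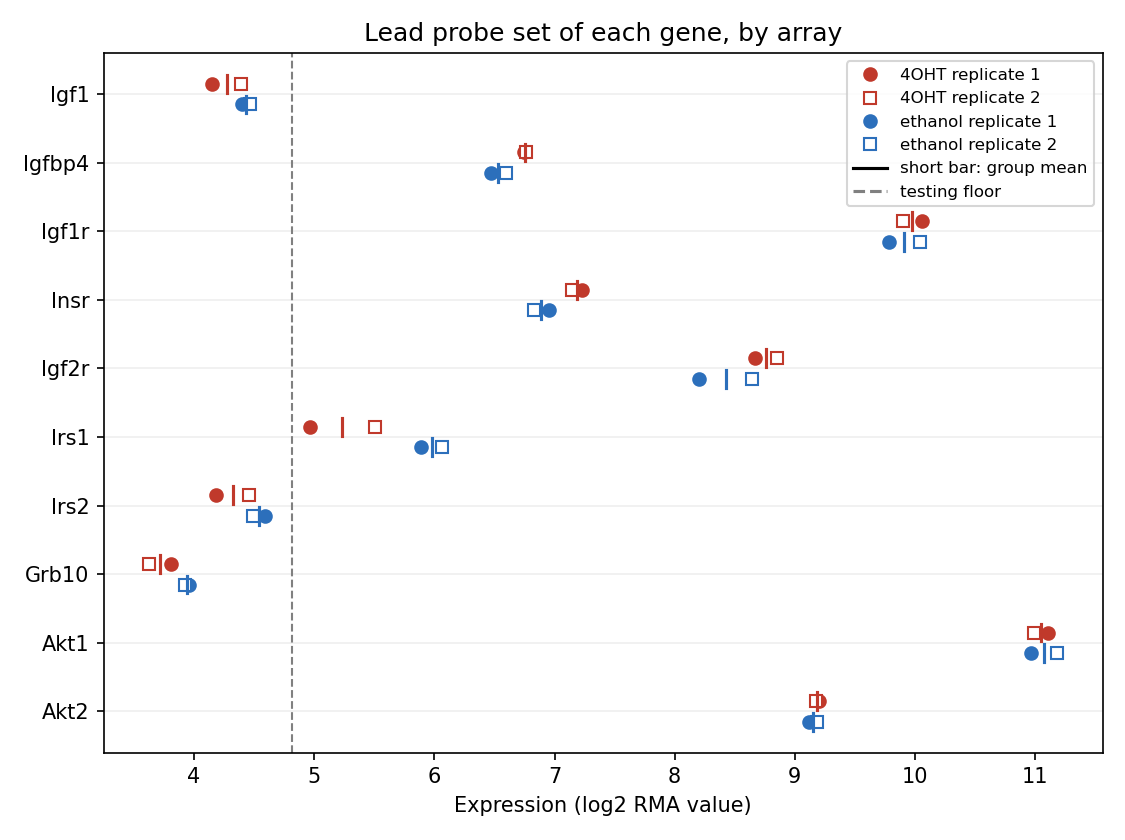
Expression of the lead probe set of each of the 10 genes (horizontal axis, log2 RMA value), with 1 point for each array, 4OHT above ethanol, and short bars for the means of 2 arrays. Irs1 has the widest gap, with 4OHT arrays at 4.96 and 5.51 and ethanol arrays at 5.89 and 6.07, while Igf1, Irs2 and Grb10 lie below the testing floor of 4.81.

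Established Notch target genes fell with 4OHT. Dtx1, a ubiquitin ligase gene, stood at 6.01 and 6.01 with 4OHT, against 9.41 and 9.43 with ethanol. Ptcra, the pre-T-cell receptor alpha chain gene, fell by 2.23 and the repressor gene Hes1 by 1.39 on the log2 scale (limma adjusted p = 0.00221 and 0.00945). Of 6 T-cell markers, 5 were above the floor, with Cd3e at 11.6 and 11.5 with 4OHT and at 11.6 and 11.9 with ethanol. Of these 5, Cd8a rose, to 9.29 and 9.69 with 4OHT against 8.62 and 8.70 with ethanol (log2 difference 0.83, limma adjusted p = 0.0347). Cd4 and Thy1 had differences of 0.66 and 0.38 and did not pass (limma adjusted p = 0.0563 and 0.102). The marker under the floor was Cd2, at 3.45 and 3.58 with 4OHT and 3.84 and 3.68 with ethanol. Of 19 markers of B, myeloid, stromal, epithelial and endothelial cells, 13 were under the floor. Pdgfrb, a stromal marker, was well above it, at 8.14 and 8.57 with 4OHT and 8.65 and 8.65 with ethanol. Summed on the linear scale, the 5 myeloid markers stood at 188 and 190 with 4OHT and 194 and 198 with ethanol. Within that sum Itgam, whose mean was under the floor, differed by 0.77 and Cd14 by -0.37 on the log2 scale. The 5 stromal markers summed to 344 and 438 with 4OHT and 462 and 462 with ethanol. Pdgfrb made up most of this, since the other 4 were under the floor. Their log2 differences were 0.02 for Col1a1, 0.21 for Dcn, -0.25 for Col1a2 and -0.08 for Col3a1. The 18S ribosomal RNA control read higher at its 3′ than its 5′ probe set by a log2 amount that moved with the groups. The gap was 0.90 and 0.82 with 4OHT and 0.05 and 0.32 with ethanol, and its bearing on RNA quality was not tested. The same measure for Actb did not separate the groups, at 0.43 and 0.45 with 4OHT and 0.40 and 0.49 with ethanol. The part of Cd8a, of the stromal markers and of the 18S control in the differences below was not tested. In such bulk RNA, fewer cells that express a gene and less RNA per cell cannot be told apart.

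The ligand gene was dim. Igf1 encodes the growth factor, which in the body comes largely from liver and from stromal and myeloid cells. Its lead probe set read 4.15 and 4.39 with 4OHT, against 4.40 and 4.46 with ethanol, all under the floor. Its 4 probe sets spanned 2.87 to 4.46 over all arrays, and their differences lay between -0.16 and -0.02. They were not tested, and since RMA gives no detection call, these values do not show whether Igf1 was expressed.

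Igfbp4 encodes a secreted protein that binds IGFs and mostly restrains their action. Its lead probe set, 1423757_x_at, read 6.74 and 6.76 with 4OHT, against 6.47 and 6.59 with ethanol. The groups did not overlap, but the difference was small, 0.22 ± 0.09 (SE) on the log2 scale, or 1.17-fold, and did not pass (limma adjusted p = 0.202). This probe set is of a type (_x_at) that may read related sequences as well.

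Other probe sets of Igfbp4 showed larger differences. Probe set 1437405_a_at read 6.42 and 7.01 with 4OHT, against 5.72 and 5.96 with ethanol, a log2 difference of 0.88 ± 0.21. Probe set 1423756_s_at read 5.26 and 5.59 with 4OHT, against 4.38 and 4.73 with ethanol, a difference of 0.87 ± 0.17. Its ethanol values lay under the testing floor, and its mean over all arrays, 4.99, passed the floor only through the 4OHT values. On both probe sets, each 4OHT array lay above both ethanol arrays, at 1.84-fold and 1.82-fold. Neither passed when adjusted over all 20967 probe sets tested (limma adjusted p = 0.0874 and 0.0576), where 4.02% were called.

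The remaining 3 Igfbp4 probe sets overlapped between the groups. Their log2 differences were 0.38 for 1421992_a_at, 0.10 for 1437406_x_at and -0.06 for 1421991_a_at. The size of the Igfbp4 difference thus depended on which probe set stood for the gene. With _x_at and _s_at probe sets left out, 1437405_a_at became the lead and the gene's limma adjusted p was 0.0703, within a range of 0.0703 to 0.511 over the 12 alternatives that tested it.

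**Figure D2:**
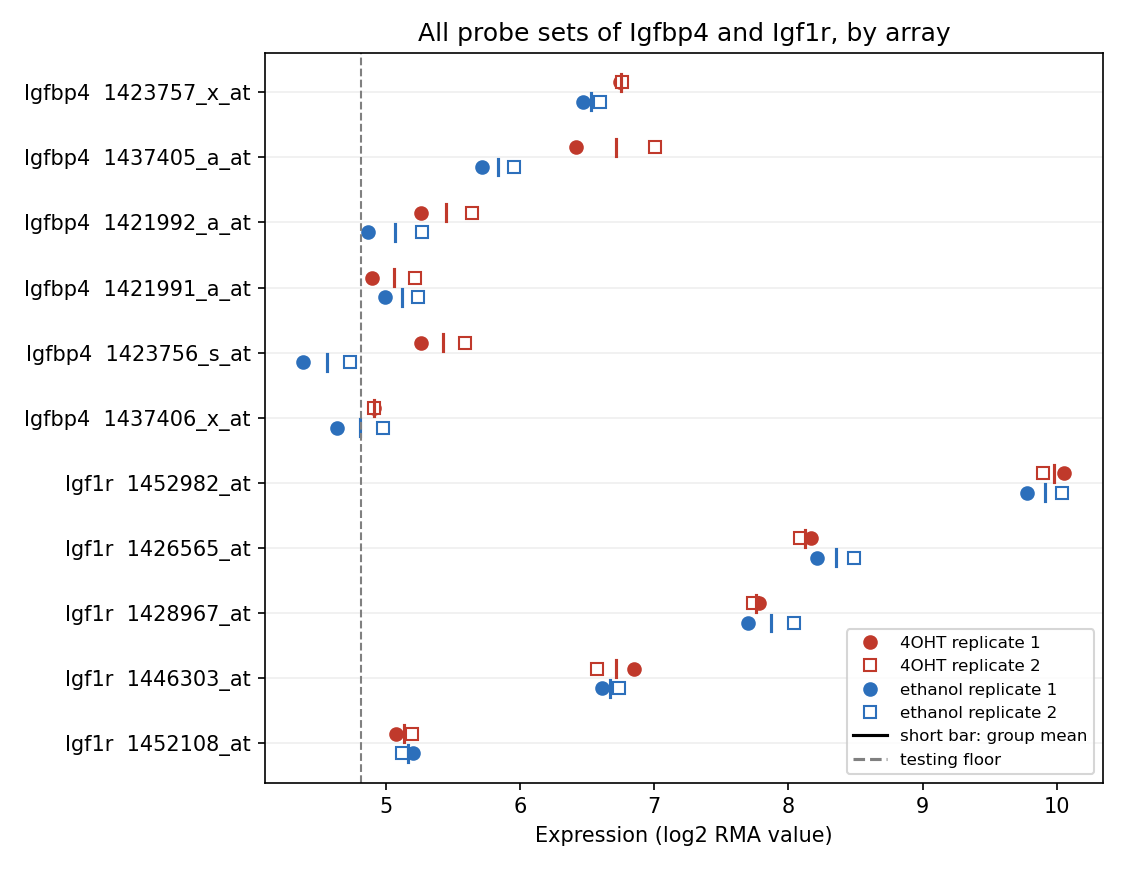
Expression on each array (horizontal axis, log2 RMA value) for the 6 probe sets of Igfbp4 and the 5 of Igf1r, with 4OHT above ethanol and short bars for the means of 2 arrays. The groups are apart on 3 Igfbp4 probe sets, by 0.22, 0.88 and 0.87, while on 4 of 5 Igf1r probe sets they overlap.

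Igf1r, the IGF1 receptor gene, was well expressed and differed little. Its lead probe set, 1452982_at, read 10.06 and 9.90 with 4OHT, against 9.78 and 10.04 with ethanol, so the groups overlapped. The log2 difference was 0.07 ± 0.12 (SE), with a 95% interval from -0.24 to 0.38 (limma adjusted p = 0.768). In folds, the interval ran from a fall of 1.18-fold to a rise of 1.30-fold. A larger fall than that was outside the interval on this probe set, and smaller ones in either direction could not be told from no difference.

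The other 4 Igf1r probe sets had log2 differences from -0.22 to 0.04. On 1426565_at alone both 4OHT arrays, at 8.17 and 8.08, lay below both ethanol arrays, at 8.21 and 8.49. That difference of -0.22 ± 0.13 did not pass (limma adjusted p = 0.36). Across the 5 probe sets, 2 differences were above 0 and 3 below, and the mean of the probe sets gave -0.05. The direction of Igf1r was therefore not fixed by these data.

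The tested genes whose values over the 4 arrays ran closest to Igf1r, each minus its own mean, were Smo, Fbxw5 and Myo9b. Their Euclidean distances from Igf1r were 0.0344, 0.0376 and 0.0389 log2 units over 4 arrays. Smo read 10.60 and 10.46 with 4OHT, against 10.30 and 10.59 with ethanol. Their differences between groups were likewise small, at 0.09, 0.08 and 0.04, and 155 genes lay within a distance of 0.1, so the likeness is that of many genes with little change.

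The insulin receptor gene, Insr, read 7.23 and 7.14 with 4OHT, against 6.95 and 6.83 with ethanol on its lead probe set. Both 4OHT arrays lay above both ethanol arrays. The difference was 0.30 ± 0.09 (SE) on the log2 scale, or 1.23-fold, with a 95% interval of 0.06 to 0.53. At an unadjusted limma p of 0.0212 it did not pass adjustment (adjusted p = 0.121). The other 2 Insr probe sets had means under the floor, at differences of -0.22 and -0.02, and the mean of all 3 gave 0.02. On the one at -0.22, both 4OHT arrays, at 4.73 and 4.55, lay below both ethanol arrays, at 4.77 and 4.95.

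Igf2r, the mannose-6-phosphate receptor that carries IGF2 to lysosomes and has no kinase of its own, read 8.67 and 8.85 with 4OHT, against 8.21 and 8.65 with ethanol. The 2 ethanol arrays were farther apart than the 2 4OHT arrays, and the higher ethanol array nearly met the lower 4OHT array. The log2 difference was 0.33 ± 0.17 (SE; limma adjusted p = 0.279), and its second probe set gave 0.31. Without ethanol replicate 1 the difference was 0.11, and without ethanol replicate 2 it was 0.55, so 1 array set much of its size.

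Irs1, which couples both receptors to PI3K, had the largest difference among the lead probe sets. Its only probe set read 4.96 and 5.51 with 4OHT, against 5.89 and 6.07 with ethanol. Both 4OHT arrays were lower than both ethanol arrays, but the 2 4OHT arrays differed by more than the ethanol arrays did. The means were 5.23 ± 0.39 with 4OHT and 5.98 ± 0.13 with ethanol (SD, n = 2 each). The log2 difference was -0.74 ± 0.19 (SE), a 1.67-fold lower mean, with a 95% interval of -1.22 to -0.26.

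Irs1 did not pass at an adjusted p under 0.05 (limma unadjusted p = 0.00964, adjusted p = 0.0821), ranking 1360 of 11581 genes by p. Without 4OHT replicate 1 the difference was -0.47, and without 4OHT replicate 2 it was -1.01. Of the 4OHT values, 4.96 lay close to the floor of 4.81 and 5.51 farther from it. Low RMA values are compressed, so a fold there can be understated, but whether this held for Irs1 was not tested.

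Irs2, the paralogue of Irs1, had 1 probe set that named it alone. It read 4.18 and 4.46 with 4OHT, against 4.59 and 4.49 with ethanol, all under the floor, and was not tested. Its difference of -0.22 had the sign of that of Irs1.

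The promoters of Igf1r, Igfbp4, Irs1 and its untested paralogue Irs2 are shown because the construct blocks a factor that acts through RBPJ at DNA. The letters are the 250 bases before the RefSeq start on the gene's strand, 5′ to 3′, in assembly GRCm38.p6, at chr7:67952007-67952256 (Igf1r, plus strand), chr11:99040994-99041243 (Igfbp4, plus strand), chr1:82291440-82291689 (Irs1, minus strand) and chr8:11008930-11009179 (Irs2, minus strand). Capitals mark a match to any motif searched.
Igf1r: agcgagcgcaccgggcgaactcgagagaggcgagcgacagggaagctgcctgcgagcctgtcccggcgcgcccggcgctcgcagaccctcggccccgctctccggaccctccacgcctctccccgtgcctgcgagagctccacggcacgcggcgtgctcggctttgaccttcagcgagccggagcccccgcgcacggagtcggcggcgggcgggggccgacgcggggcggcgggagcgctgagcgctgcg
Igfbp4: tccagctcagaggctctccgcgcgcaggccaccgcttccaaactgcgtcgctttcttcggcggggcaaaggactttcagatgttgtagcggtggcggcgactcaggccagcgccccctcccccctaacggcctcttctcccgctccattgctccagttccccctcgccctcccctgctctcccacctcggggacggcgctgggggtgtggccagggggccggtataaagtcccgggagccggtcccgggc
Irs1: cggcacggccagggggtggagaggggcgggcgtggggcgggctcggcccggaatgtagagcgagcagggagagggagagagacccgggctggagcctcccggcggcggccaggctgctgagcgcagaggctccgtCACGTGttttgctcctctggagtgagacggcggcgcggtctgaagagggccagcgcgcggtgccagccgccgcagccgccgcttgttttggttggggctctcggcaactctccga
Irs2: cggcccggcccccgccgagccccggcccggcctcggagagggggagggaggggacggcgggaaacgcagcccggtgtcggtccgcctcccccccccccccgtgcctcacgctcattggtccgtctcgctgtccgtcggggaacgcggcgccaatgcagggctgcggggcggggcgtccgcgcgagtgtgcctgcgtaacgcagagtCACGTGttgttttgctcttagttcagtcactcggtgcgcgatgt

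The search covered both strands for the RBPJ motif GTGGGAA, its core TGGGAA, which lies within it, the E-box CACGTG, which MYC family proteins bind and which reads the same on both strands, and the FOXO motif GTAAACA. Windows were found for 9 of the 10 genes, 14 in all since some have several starts, and not for Insr. None of the 14 held GTGGGAA, which 5.42% of all 32851 windows of this length held. The core TGGGAA was found in 4 of the 14 windows, 1 each of Igf1 and Akt1 and 2 of Akt2, against 21.6% of all windows.

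The E-box was found in 3 of the 14 windows, those of Irs1, Irs2 and Igf2r, against 6.02% of all windows. In Irs1 it began 115 bases before the start and in Irs2 44 bases before it. The Igf2r window held it at 2 places, 48 and 7 bases before the start. The log2 differences of these genes had unlike signs, at -0.74 for Irs1, -0.22 for Irs2 and 0.33 for Igf2r, and none was called. The FOXO motif was found in 1 of the 14, of Akt1, against 3.17% of all windows. These are matches of letters in a short window, not binding sites, and RBPJ is known to act at distant enhancers as well.

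Grb10 encodes an adaptor that binds both receptors and restrains their signal. Its lead probe set read 3.81 and 3.63 with 4OHT, against 3.96 and 3.93 with ethanol. On each of its 3 probe sets both 4OHT arrays lay below both ethanol arrays, by 0.14 to 0.25 on the log2 scale. The highest value was 3.96, below the floor, and none was tested.

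The AKT kinase genes were bright and nearly level. Akt1 read 11.11 and 10.99 with 4OHT, against 10.96 and 11.18 with ethanol. Its log2 difference was -0.02 ± 0.11 (SE), with a 95% interval of -0.30 to 0.25 (limma adjusted p = 0.913). The second Akt1 probe set by level, 1425711_a_at, gave -0.05, and dimmer ones gave -0.33 and 0.15, near the floor.

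Akt2 read 9.20 and 9.18 with 4OHT, against 9.12 and 9.19 with ethanol. Its log2 difference was 0.03 ± 0.09 (SE; limma adjusted p = 0.831), with a 95% interval of -0.18 to 0.25. On these lead probe sets, a fall of Akt2 by more than 1.13-fold, or of Akt1 by more than 1.23-fold, lay outside the intervals. Akt2 probe sets 1421324_a_at and 1455703_at gave 0.06 and -0.24 ± 0.17 (SE), with the groups overlapping on both, and did not pass.

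**Figure D3:**
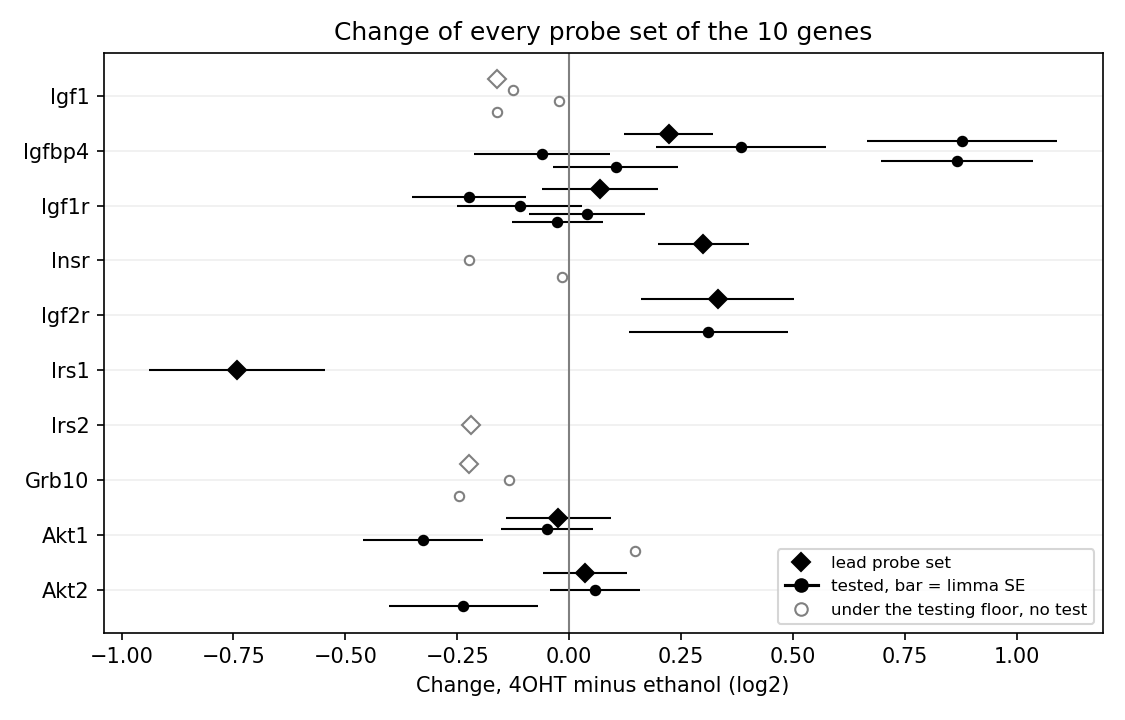
Difference between groups, 4OHT minus ethanol (horizontal axis, log2), for all 32 probe sets of the 10 genes, with the lead probe set as a diamond and limma's SE as a bar where the probe set was tested. Of the 32, 13 lie above 0 and 19 below it. Those below include 4 of Igf1, 3 of Grb10, 2 of Insr and 1 of Irs2, all under the floor and untested. Of the 32, 21 were tested and none passed, against 4.02% called over all probe sets tested. The farthest are Igfbp4 at 0.88 and 0.87 and Irs1 at -0.74.

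Further genes of the pathway were counted from 5 lists chosen by function, with earlier results of these data known. They held 75 genes in all, of which 70 had a probe set naming 1 gene and 58 were tested. The remaining 5 were not analysed here. With 4OHT, 3 of the 58 rose and 1 fell (limma adjusted p under 0.05), which is 6.9%, against 7.47% of all tested genes. Their median difference was 0.06, against -0.01 over all tested genes. The share called was thus near the background, though lists chosen this way give no independent comparison. The 4 called genes lay at different steps of the pathway.

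Among adaptors and receptor-proximal genes, 1 of 14 rose and none fell. This was Dok2, a docking protein of blood cells that dampens tyrosine kinase signals. It read 9.42 and 9.29 with 4OHT, against 7.97 and 7.94 with ethanol, a 2.64-fold rise (log2 1.40 ± 0.09 SE, limma adjusted p = 0.005). The groups were far apart relative to the spread within each. Grb2, an adaptor that links receptors to RAS and a gene picked here with its value known, had a difference of 0.37 (limma adjusted p = 0.0679).

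Among PI3K subunits and the enzymes that oppose or follow them, 1 of 12 rose and none fell. It was Pik3r3, a regulatory subunit of PI3K. It read 9.86 and 9.25 with 4OHT, against 7.86 and 7.67 with ethanol, a 3.46-fold rise (log2 1.79 ± 0.21 SE, limma adjusted p = 0.0165). The 2 4OHT arrays were 0.61 apart, and both exceeded the ethanol arrays by more than 1 log2 unit. Pik3r1, the main regulatory subunit gene in most cells, had a difference of 0.40 ± 0.08 and missed the threshold (limma adjusted p = 0.0529); it too was picked with its value known.

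Among the mTOR branch, 1 of 15 fell and none rose. Deptor, which encodes an inhibitor bound to mTOR, read 6.01 and 6.32 with 4OHT, against 7.01 and 7.06 with ethanol, a 1.82-fold fall (log2 -0.87 ± 0.13 SE, limma adjusted p = 0.025). On 4 of its 6 probe sets both 4OHT arrays were lower, by 0.80 to 1.34 on the log2 scale. The probe set with the smallest of these falls lay under the floor on every array and was not tested. The one with the largest fall had a 4OHT mean of 4.79, also under the floor. The remaining probe sets moved by -0.02 and 0.16. The one at 0.16 was under the floor and untested, with both 4OHT arrays higher. Eif4ebp1, which encodes a translation repressor that mTOR phosphorylates, stood at 10.06 and 10.72 with 4OHT, against 11.36 and 11.38 with ethanol. Its difference of -0.98 ± 0.22 missed the threshold (limma adjusted p = 0.0563), and this gene was also picked with its value known.

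Among AKT substrates, 1 of 11 rose and none fell. Foxo3, a transcription factor that AKT keeps inactive, read 10.80 and 10.89 with 4OHT, against 10.28 and 10.23 with ethanol, a rise of 0.59 ± 0.09 (SE) on the log2 scale (limma adjusted p = 0.0267). Its 2 further probe sets had differences of 0.56 and 0.36. The one at 0.36 had a mean under the floor and was not tested, with ethanol arrays at 4.66 and 4.59. None of 6 tested genes for other ligands, binding proteins and IGF2 mRNA-binding proteins passed in limma, and none had an unadjusted p under 0.05. The nearest was Igfbp7, at 6.79 and 7.24 with 4OHT, against 6.63 and 6.69 with ethanol (adjusted p = 0.238).

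With 1 array left out, and 1 residual degree of freedom, Foxo3 and Deptor lost their calls in each of 4 fits (limma adjusted p of 0.094 to 0.116 and of 0.0546 to 0.105). Pik3r3 lost its call in 3 fits (0.0521 to 0.0568), keeping it without 4OHT replicate 2, and Dok2 in 1, without 4OHT replicate 1 (0.0521). All 4 genes kept their direction in these fits.

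**Figure D4:**
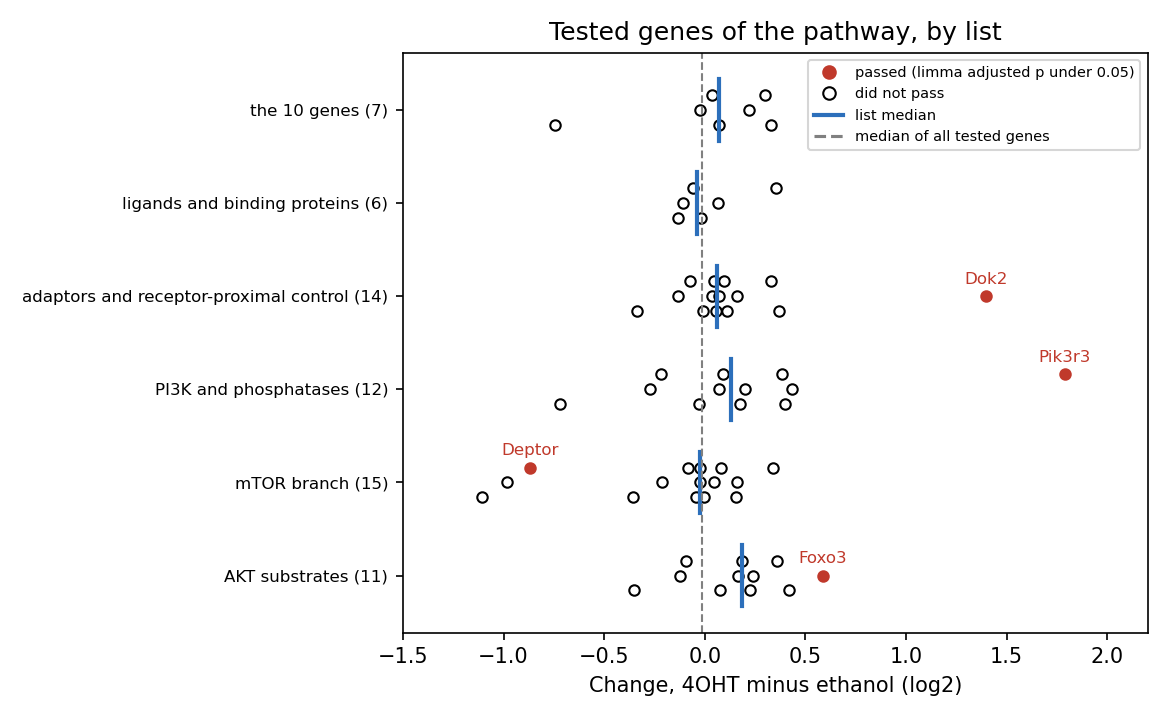
Difference between groups, 4OHT minus ethanol (horizontal axis, log2), for each tested gene of the 10 and of the 5 pathway lists, with the number tested in brackets, blue bars for list medians and a dashed line for the median of all tested genes. The 4 filled points, Dok2, Pik3r3, Foxo3 and Deptor, passed the test, and no point in the top row did.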

How the data were processed

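Per the submitters' processing notes, the authors made the deposited log2 expression values with RMA, which corrects background, equalises arrays and summarises probes (version not given in the sources used here). These log2 values ran from 2.25 to 14.6, and RMA gives no detection call or read depth, so the number of arrays limits precision. From these values, non-control probe sets naming exactly 1 gene (34945) were kept, with 1 lead probe set a gene. A floor at the 40th percentile of their means (4.81) left 11581 genes to test. The comparison used limma 3.58.1 (R 4.3.3; lmFit and eBayes on all 4 arrays without trend or block), two-sided. P-values were adjusted by Benjamini-Hochberg over all these genes, and called means an adjusted p under 0.05. Probe sets were fitted likewise over all 20967 above the floor. The fit was checked on simulated data.

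All 10 genes are described. Of the lists, called genes are named, or else the gene with the smallest p, with the exceptions marked. Members and lists were chosen with earlier results of these data known. Same-numbered arrays deviated alike across genes (r = 0.34), but nothing in the labels says that the numbers pair samples.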

Additional observations from a re-analysis of the deposited data

How the results depend on the processing

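No member was called higher under any of the 14 alternatives run, of which the filter at the 60th percentile left Igfbp4 and Irs1 untested. One alternative model, with the replicate block, called 1 of them lower (Irs1, limma adjusted p = 0.0024, against a range of 0.0024 to 0.21 over its alternatives), and a threshold of 0.1 also called 1 lower, Irs1. The numbers are not known to pair the arrays. With the replicate block 1104 genes were higher and 1031 lower in all, and 10 and 7 of the pathway lists. A threshold of 0.1 gave 853 and 824, and 7 and 2 of the lists. The intensity trend gave 663 and 636, and 5 and 2 of the lists, and with a robust prior 679 and 666, and 5 and 2. The filter at the 60th percentile gave 6 higher list genes, and averaging each gene's probe sets 2 lower ones. Leaving out 1 array gave 9 to 125 higher and 12 to 66 lower genes in all, and 0 to 2 higher and 0 to 1 lower list genes, with the fewest without 4OHT replicate 1. The differences of Igf1r and Akt1, near 0, changed sign with single arrays left out, between -0.06 and 0.20 for Igf1r and between -0.13 and 0.08 for Akt1. Igf1r was at -0.0099 without 4OHT replicate 1 and -0.061 without ethanol replicate 1, and Akt1 at 0.032 without 4OHT replicate 2 and 0.084 without ethanol replicate 2. With probe sets averaged, Igf1r (-0.051), Akt2 (-0.048) and Igfbp7 (-0.021) changed sign. The cause was not tested. With 2 arrays a group, a gene that missed the test is not shown to be unchanged. The smallest difference called in the reported fit, 0.40 on the log2 scale, is no limit of detection, and the larger ones of Irs1 and Eif4ebp1 were not called.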
